A study of Mus musculus with 2 samples.

Results

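The genes described here are the amino acid transporter families SLC1, SLC3, SLC6, SLC7, SLC36, SLC38 and SLC43 in ovulated mouse eggs. Members were all genes of the deposited table whose symbol, matched by Ensembl identifier, starts with Slc1a, Slc3a, Slc6a, Slc7a, Slc36a, Slc38a or Slc43a, leaving out pseudogenes. The rule found 66 of 36227 genes. Of these, 62 are transporter genes or their heavy chains and 4 (Slc36a1os, Slc36a3os, Slc6a19os and Slc7a6os) carry the suffix of a gene on the opposite strand. The family names do not all mean amino acid transport: Slc6a4 carries serotonin, Slc6a8 creatine and Slc43a3 purine bases.

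The eggs were oocytes arrested at metaphase II, naturally ovulated by ICR mice, an outbred strain, at 16 weeks of age. The mothers of both groups had become obese by 12 weeks in standard housing. For the next 4 weeks the slimming group lived in cages labelled EE, given in the labels as an enriched environment that induced slimming, and the control group, on a standard diet, stayed in normal cages. Each group was 1 library made from a pool of 9 oocytes, 3 from each of 3 mice, so no difference below has a replicate check, the groups could not be tested against each other, and differences between mice cannot be seen. In a pool, fewer transcripts per oocyte and fewer contributing oocytes cannot be told apart.

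Amino acid transporters set which building blocks, osmolytes and antioxidant precursors a cell can take up. SLC7 light chains exchange amino acids across the membrane only when paired with an SLC3 heavy chain, SLC6 carriers use the sodium and chloride gradients, SLC1 and most SLC38 carriers use sodium, and SLC36 carriers use protons. In the mouse egg and early embryo, glycine carried by GLYT1 (Slc6a9) and betaine or proline carried by SIT1 (Slc6a20a) are known for the control of cell volume. Cystine brought in by xCT (Slc7a11 with Slc3a2) is a source of cysteine for glutathione. Cumulus cells, which surround the oocyte, are known to take up some amino acids and pass them on through gap junctions.

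The slimming library, or pool, held 20947962 counts and the control library 20242289, so that a count of 0 allows up to 0.143 and 0.148 CPM (counts scaled to a fixed library total), from 3 counts. All 10 oocyte markers looked up, among them Gdf9 and Mos, had counts in both libraries and together reached 99276 and 101088 CPM. Most of that sum was Gdf9 and H1foo, and the markers were not all even. Zp3 had 51313 counts in the slimming pool and 23723 in the control pool, Zp1 11498 and 5657, and Zp2 5936 and 3208. After scaling, 6 of the 10 were higher and 4 lower in the slimming library. The sum over 13 markers of cumulus and granulosa cells was 532.5 and 532.1 CPM, most of it Serpine2, and 4 of them (Ptx3, Foxl2, Amhr2 and Fshr) had 0 counts in both libraries, while Inha had 0 counts in the slimming pool and 63 in the control pool. The 13 immune markers summed to 27.6 and 45.4 CPM, with Tyrobp at 0 and 57 counts and Cd74 at 0 in both. The 7 oviduct markers summed to 245.7 and 245.3 CPM, nearly all Cdh1, so the equal sums say little of the others. Tppp3 had 93 counts in the slimming pool and 210 in the control pool, Epcam 10 and 20, and Ovgp1 0 and 6. Dnah5 had 26 and 15, Pax8 0 and 2, and Foxj1 0 in both.

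The promoter of Slc7a11 is shown next to that of its partner Slc3a2, because the 2 proteins form the cystine transporter, their genes led the families in counts, and both genes are known targets of the transcription factor ATF4, which responds to amino acid shortage. The 100 bases before the start of transcription are printed from RefSeq (build GRCm38.p6), read on the gene's strand, here the minus strand for both, at chr3:50443614-50443713 for Slc7a11 and at chr19:8713898-8713997 for Slc3a2. Capitals mark the core of the amino acid response element, TGATGNAA, on either strand.
Slc7a11: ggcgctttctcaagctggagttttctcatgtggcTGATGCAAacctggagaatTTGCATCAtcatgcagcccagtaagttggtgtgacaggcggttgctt
Slc3a2: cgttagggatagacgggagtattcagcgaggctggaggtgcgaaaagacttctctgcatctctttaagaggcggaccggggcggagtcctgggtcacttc
The Slc7a11 sequence holds the core 2 times, facing each other, at bases -66 to -59 on the gene's strand and -47 to -40 on the other strand. In the 250 bases before the start, 3.45% of 32851 promoter windows of the table held at least 1 match and 0.0396% held 2 or more. Of the 22 members with a mean of at least 1 CPM, 16 had a window in the table, and Slc7a11 was the only 1 of those 16 with a match. These matches describe letters in the reference sequence and were not measured as sites of binding.

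Of the 66 members, 24 were blank in both libraries, 20 had counts with a mean of the 2 libraries under 1 CPM, 10 lay between 1 and 10 CPM and 12 had at least 10 CPM. Among the 62 genes other than those on the opposite strand, 33.9% had a mean of at least 1 CPM, beside 47.0% of the 19753 protein-coding genes of the table. Levels were concentrated in few genes. Slc3a2 held 46.0% (exact binomial 95% interval 45.4 to 46.6) of the 25795 counts of these genes in the slimming library and 50.0% (49.4 to 50.7) of 25749 in the control library. Among these 62 genes, the 5 with the highest mean CPM (Slc3a2, Slc7a11, Slc6a9, Slc43a3 and Slc6a6) together held 84.1% and 86.9%. These and all later intervals cover counting error only, and copies made by PCR are not independent molecules.

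**Figure D1:**
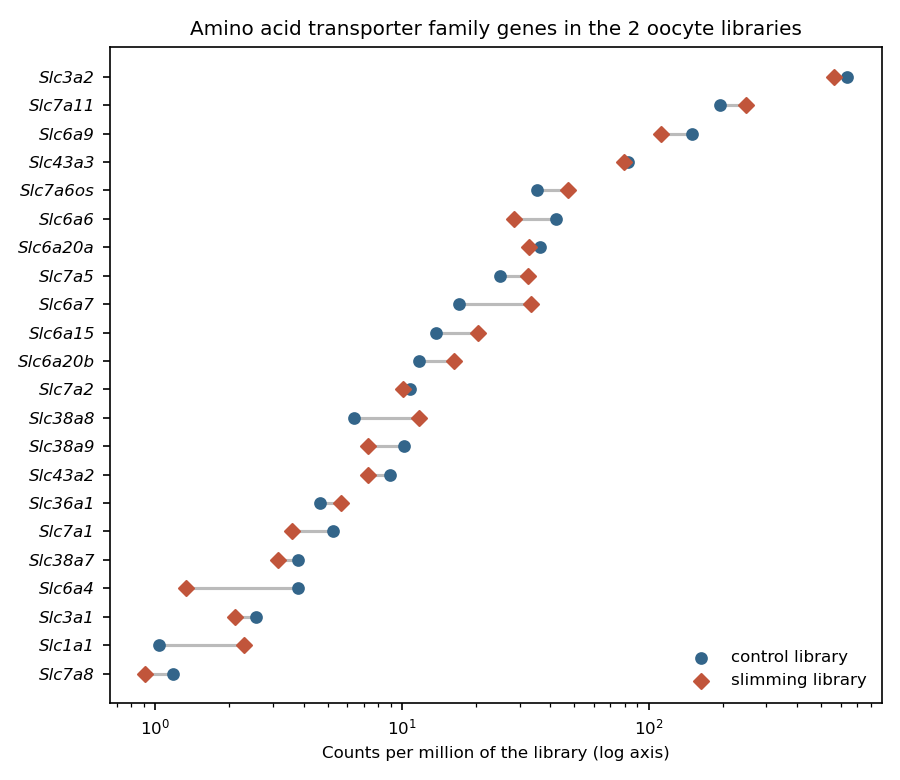
Level of each of the 22 members with a mean of at least 1 CPM, in CPM on a log axis, with 1 circle for the control and 1 diamond for the slimming library. Slc3a2 stands apart at 566.7 and 636.6 CPM, and in most rows the 2 symbols lie close together next to the range of levels between genes.

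Between the libraries the families as a whole were nearly equal. The 62 genes summed to 1231 CPM in the slimming pool and 1272 CPM in the control pool (log2 -0.08, 95% counting interval -0.10 to -0.05). Ratios are of slimming over control, after adding 0.5 to each count and scaling with edgeR's TMM factors. Among the 22 members with a mean of at least 1 CPM, all of which had counts in both libraries, 1 was at least 2-fold higher in the slimming library (Slc1a1) and 1 at least 2-fold lower (Slc6a4). Over all 10249 genes with that mean, 7.36% were higher and 6.64% were lower by that rule. The interval lay wholly above equality for 8 of the 22 members (32.7% of all genes) and wholly below for 8 (31.1% of all genes), shares close to those of all genes, and for no member did it lie wholly beyond 2-fold (2.83% of all genes higher, 2.97% lower). The median log2 ratio was -0.15, beside 0.02 over all genes, and the sign of the median turned with the filter. Of the 12 members with a mean of at least 10 CPM, none was 2-fold higher (1.93% of 5398 such genes) or lower (1.24%), and their median was 0.12, beside 0.01 over those genes. Each of the 22 ratios lay within the range that holds the central 95% of all genes at a like level, which ran from -3.61 to 2.55 between 1 and 3 CPM, from -0.94 to 1.12 between 10 and 30 CPM and from -0.62 to 0.69 at 100 CPM or more.

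**Figure D2:**
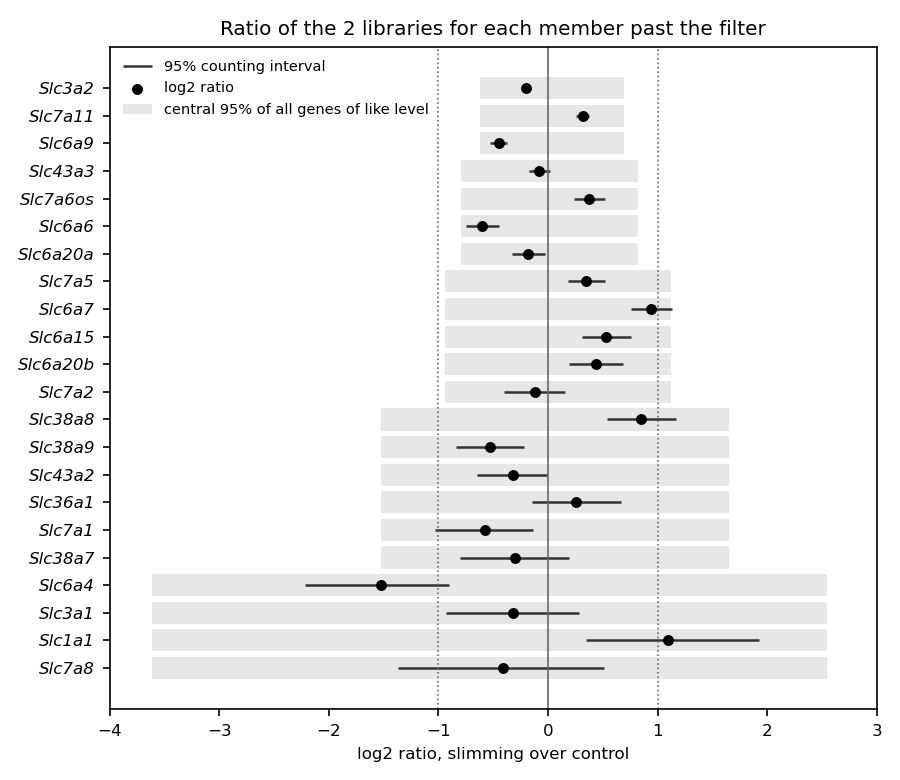
Log2 ratio of slimming over control for each of the 22 members (points) with its 95% counting interval (lines), over the central 95% of all genes of like level (grey bars), with dotted lines at 2-fold. All 22 points lie inside their grey bars, and Slc1a1 and Slc6a4 alone lie past 2-fold.

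Annotated exons of 9 of the 22 members overlap those of another gene, always on the opposite strand and in 5 cases with a protein-coding gene. The large overlaps with protein-coding genes are named with their values below. Of the overlaps with other genes, the largest were Slc43a2 with Gm45606 (922 bases), Slc7a2 with Gm26584 (635) and Slc6a20a with Gm17120 (563). The 22 members had a median of 5073 exon bases, beside 4434 over all genes with that mean.

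Of the heavy chains, only 1 was abundant. Slc3a2 (ENSMUSG00000010095, chromosome 19), the 4F2 heavy chain that carries most SLC7 exchangers to the cell surface, had 11872 counts (566.7 CPM) in the slimming pool and 12886 counts (636.6 CPM) in the control pool. It was 1.15-fold lower in the slimming library (log2 -0.20, interval -0.24 to -0.16). Scaled to the length of its exons it reached 160.6 and 180.4 CPM per kilobase, above 96.9% of the genes with a mean of at least 1 CPM and a known exon length. Slc3a1, the heavy chain rBAT of kidney and gut cystine transport, was near the bottom with 44 and 52 counts (log2 -0.32, interval -0.94 to 0.29). Its exons share 601 bases with Prepl on the other strand, which had 78 and 106 counts, and since the use of strand in counting is not given in the sources used here, reads of the pair cannot be told apart.

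Of the light chains, 2 were present in numbers. Slc7a11 (ENSMUSG00000027737, chromosome 3), the cystine and glutamate exchanger xCT, had 5191 counts (247.8 CPM) in the slimming pool and 3939 counts (194.6 CPM) in the control pool, 1.25-fold higher in the slimming library (log2 0.32, interval 0.26 to 0.38). Slc7a5 (ENSMUSG00000040010, chromosome 8), the exchanger LAT1 for large neutral amino acids, had 682 counts in the slimming pool and 506 in the control pool, 1.27-fold higher (log2 0.35, interval 0.18 to 0.52). The direction of both was opposite to that of their heavy chain Slc3a2. Slc7a8 (LAT2) had 19 and 24 counts, Slc7a6 (y+LAT2) 13 and 15 and Slc7a7 (y+LAT1) 2 and 10, and Slc7a10, Slc7a9, Slc7a12, Slc7a13 and Slc7a15 were blank. In sum, Slc3a2 stood 5.96 times above its light chains (Slc7a5, Slc7a6, Slc7a7, Slc7a8, Slc7a10 and Slc7a11) per kilobase of exon in the slimming library and 8.48 times in the control library. Slc7a11 made up 66.1% and 65.7% of that light chain level and Slc7a5 32.6% and 31.7%, so that the make-up of the light chains was alike in the 2 libraries. The protocol primes from the poly(A) tail, and how evenly it covers long transcripts was not tested. Slc7a11 has 13922 bases of annotated exon against 3529 for Slc3a2, and levels per length between these genes carry that limit.

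**Figure D3:**
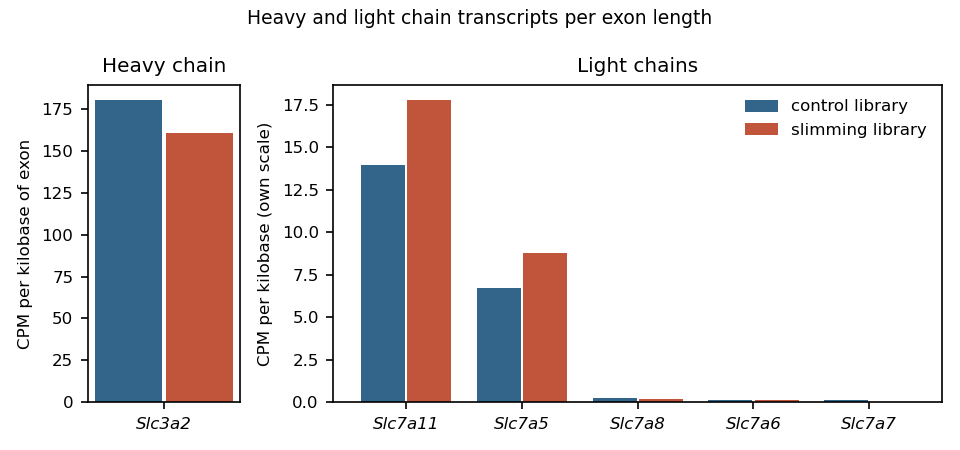
CPM per kilobase of exon for the heavy chain Slc3a2 (left) and 5 of its light chains (right, on a scale of its own), with 1 bar per library and no error since each group is 1 library. Slc3a2 is lower and both Slc7a11 and Slc7a5 are higher in the slimming library, and Slc7a8, Slc7a6 and Slc7a7 are close to 0.

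The cationic amino acid carriers, which bring in arginine and lysine without a heavy chain, were low. Slc7a2 (CAT2) had 212 and 218 counts (10.1 and 10.8 CPM; log2 -0.12, interval -0.40 to 0.16). Slc7a1 (CAT1), the widely expressed carrier, had 75 counts in the slimming pool and 106 in the control pool (log2 -0.58, interval -1.03 to -0.14). Slc7a4, placed in this group by family and not counted among the amino acid carriers, had 6 and 0 counts. Slc7a14 had 2 and 0, and Slc7a3 was blank. As a group these genes stood at 14.1 and 16.0 CPM, with an interval of the ratio (-0.45 to 0.02) that included equality.

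The SLC6 carriers of glycine, taurine, betaine and creatine were lower in the slimming library in sum, at 189.9 CPM against 240.4 CPM (log2 -0.37, interval -0.43 to -0.31). Per kilobase of exon they summed to 35.2 and 44.5 CPM, above the light chains at 26.9 and 21.3. Slc6a9 (ENSMUSG00000028542, chromosome 4), the glycine transporter GLYT1, had 2351 counts (112.2 CPM) in the slimming pool and 3034 (149.9 CPM) in the control pool and was 1.36-fold lower (log2 -0.45, interval -0.53 to -0.37). Exons of Slc6a9 share 1429 bases with Ccdc24 on the other strand, which had 5760 and 6023 counts (log2 -0.15). Part of the Slc6a9 counts may therefore belong to that gene. Since Slc6a9 held 2351 of the 3978 counts of the group in the slimming and 3034 of 4867 in the control library, the sum carries the same limit. Slc6a6 (ENSMUSG00000030096, chromosome 6), the taurine transporter, had 598 counts (28.5 CPM) in the slimming pool and 856 (42.3 CPM) in the control pool. It was 1.51-fold lower (log2 -0.60, interval -0.75 to -0.45), the lowest ratio among the 12 members with at least 10 CPM. Taurine itself is made from cysteine by Cdo1 and Csad, and both mRNAs were abundant, Csad at 431.6 and 499.8 CPM (log2 -0.24, interval -0.28 to -0.20) and Cdo1 at 176.6 and 203.6 CPM (log2 -0.24, interval -0.30 to -0.17). These 2 genes were named after their values were seen. Like Slc6a6, each had its whole interval below equality and was less than 2-fold apart. Over all genes with a mean of at least 1 CPM, 31.1% had such an interval. Of the 6 genes with that mean in the list of glutathione, cysteine and taurine, 3 had such an interval. The interval lay wholly above equality for 2, Gclc (log2 0.49) and Gclm (log2 0.48).

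Slc6a20a (ENSMUSG00000036814, chromosome 9), the betaine and proline carrier SIT1, had 689 and 738 counts (32.9 and 36.5 CPM; log2 -0.18, interval -0.33 to -0.03). Its neighbour and close copy Slc6a20b went the other way, with 340 and 237 counts (16.2 and 11.7 CPM, log2 0.44, interval 0.20 to 0.69). The exons of Slc6a20b share 1800 bases with Sacm1l on the other strand (71 and 79 counts), and how reads that match both copies were counted is not given in the sources used here, so both values are uncertain. Slc6a8, the creatine transporter, had 0 and 1 counts, Slc6a5, the glycine transporter of inhibitory neurons, 0 and 1, and the betaine and GABA carrier Slc6a12 was blank.

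The SLC6 carriers of neutral amino acids were higher in the slimming library, at 54.6 CPM against 31.0 CPM in sum (log2 0.79, interval 0.65 to 0.93). Slc6a7 (ENSMUSG00000052026, chromosome 18), the high-affinity proline transporter known from brain, had 699 counts (33.4 CPM) in the slimming pool and 344 counts (17.0 CPM) in the control pool. At 1.92-fold higher (log2 0.94, interval 0.75 to 1.13), it had the largest ratio among the 12 members with at least 10 CPM, just short of 2-fold. Slc6a15, a carrier of branched-chain amino acids and proline, had 426 and 278 counts (20.3 and 13.7 CPM), 1.45-fold higher (log2 0.53, interval 0.31 to 0.76). Slc6a14, a broad carrier of neutral and cationic amino acids, had 19 and 5 counts, and Slc6a17, Slc6a18 and Slc6a19 were blank. The 2 proline carriers Slc6a7 and Slc6a15 thus held 1125 of the 1144 counts of the group in the slimming and 622 of 627 in the control library.

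Among GABA and monoamine carriers, Slc6a4 (ENSMUSG00000020838, chromosome 11), the serotonin transporter, had 28 counts (1.34 CPM) in the slimming pool and 77 (3.80 CPM) in the control pool. It was 2.88-fold lower (log2 -1.52), with an interval (-2.22 to -0.90) that reached within 2-fold. The GABA carrier Slc6a11 had 1 count in each library, and Slc6a2, Slc6a3 and Slc6a13 were blank. Slc6a21, a gene of the SLC6 family without an assigned substrate, was kept apart from that group. It had 22 counts in the slimming pool and 0 in the control pool, 6.93-fold higher against a floor of 3 counts in the control library. Its log2 interval started at 2.37 and had no upper limit. Its mean was under 1 CPM, and 150 genes of the table had over 10 counts in the slimming pool and 0 in the control pool, against 265 genes the other way.

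SLC1 carriers were scarce. Slc1a1 (ENSMUSG00000024935, chromosome 19), the glutamate and aspartate carrier EAAC1, had 48 counts (2.29 CPM) in the slimming pool and 21 counts (1.04 CPM) in the control pool, 2.13-fold higher (log2 1.09, interval 0.34 to 1.93). Its exons share 2631 bases with 4430402I18Rik on the other strand, a gene with 2 and 1 counts. The neutral exchangers Slc1a4 (ASCT1) and Slc1a5 (ASCT2), carriers of serine, alanine, cysteine and glutamine in many dividing cells, had 0 counts in the slimming library, and 1 and 7 in the control library. The astrocyte carriers Slc1a2 and Slc1a3 had 1 and 1 and 0 and 2 counts, and Slc1a6 and Slc1a7 were blank.

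The SLC38 family was represented by its lysosomal members and Slc38a8. Slc38a9, the lysosomal arginine sensor that signals to mTORC1, had 152 and 207 counts (7.26 and 10.2 CPM; log2 -0.53, interval -0.84 to -0.22). Slc38a7, the lysosomal glutamine carrier, had 66 and 77 counts (3.15 and 3.80 CPM; log2 -0.30, interval -0.80 to 0.19). Slc38a8, a glutamine carrier known from the retina, had 246 and 129 counts (11.7 and 6.37 CPM), 1.80-fold higher (log2 0.85, interval 0.54 to 1.17). The surface glutamine and alanine carriers were at or near 0: Slc38a2 (SNAT2), which many cells express, had 0 and 4 counts, Slc38a4 had 0 and 1, and Slc38a1, Slc38a3 (SNAT3) and Slc38a5 were blank. At these depths a count of 0 allows up to 0.143 CPM in the slimming pool and 0.148 CPM in the control pool. Slc38a6 had 15 and 3 counts, Slc38a10 24 and 12 and Slc38a11 8 and 7.

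In the SLC43 and SLC36 families no member with a mean of at least 1 CPM was 2-fold apart. Slc43a3, a carrier of purine bases, had rank 3 of the 22 members per kilobase of exon (17.9 and 18.5 CPM per kilobase), with 1671 and 1668 counts (79.8 and 82.4 CPM; log2 -0.08, interval -0.18 to 0.02). Slc43a2 (LAT4), which lets branched-chain amino acids out of cells, had 153 and 181 counts (log2 -0.32, interval -0.64 to -0.0047), and Slc43a1 (LAT3) had 1 and 5. Slc36a1 (PAT1), a proton-coupled carrier of small amino acids that is also found on lysosomes, had 119 and 94 counts (log2 0.26, interval -0.14 to 0.67). Slc36a4 had 0 and 1 counts, and Slc36a2 and Slc36a3 were blank.

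**Figure D4:**
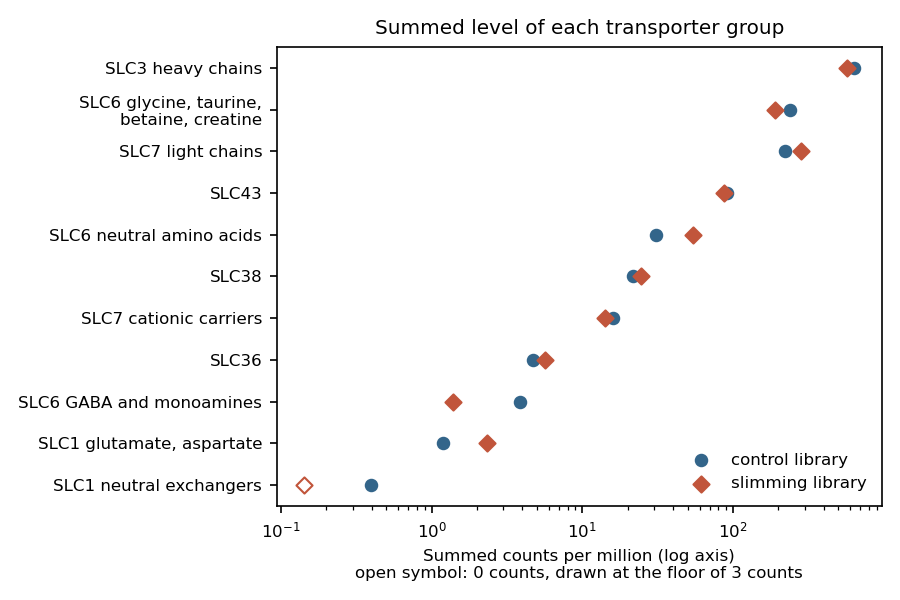
Summed CPM of the members of each transporter group in the control (circle) and slimming (diamond) library, on a log axis. The neutral amino acid SLC6 group is higher and the glycine, taurine, betaine and creatine group is lower in the slimming library, and the open diamond marks the 0 counts of Slc1a4 and Slc1a5.

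Some members with few counts were seen in 1 library alone. Of the 42 members with counts, 8 (19.0%) had 0 counts in the slimming pool and 1 to 10 in the control pool, and 2 (4.76%) the reverse (Slc7a4 and Slc7a14). Over all 18017 genes with counts, the shares were 10.7% and 7.78%, and whether the members differ from them was not tested. Markers of other cells were also uneven. Of the 13 immune markers, 7 had 0 counts in the slimming pool alone and 5 had counts in both pools, among them Laptm5 (86 and 75 counts), C1qb (38 and 38) and H2-Aa (374 and 550). Of the 13 markers of cumulus and granulosa cells, 4 had 0 counts in the slimming pool alone and 5 had counts in both. Those 5 were Serpine2 (10290 and 9608 counts), Cyp19a1 (723 and 793), Nr5a2 (136 and 204), Hsd3b1 (1 and 72) and Has2 (5 and 2). Of the 5 cumulus and granulosa markers with a mean of at least 1 CPM, 4 had an interval wholly below equality and 0 wholly above. Of the 6 immune markers with that mean, 4 lay wholly below and 0 wholly above. Over all genes with that mean, 31.1% lay below and 32.7% above. Inha, Hsd3b1, Tyrobp and Fcer1g passed that filter only through the control pool, so the direction of these markers was fixed by it. No immune, cumulus or granulosa marker had 0 counts in the control pool alone, and the part of these cells in the members' counts was not tested.

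Genes that sense, use or partner with the same amino acids were read from lists, which were chosen with earlier results of these data known. In the list of mTORC1 amino acid sensing, 4 of 27 genes with a mean of at least 1 CPM were 2-fold or more higher and 2 were lower, with a median log2 ratio of 0.08. Over all genes with that mean, 7.36% were higher and 6.64% lower, and the same shares are the background for the lists that follow. Rptor, the mTORC1 subunit that binds its substrates, had 7 and 36 counts (log2 -2.36, interval -3.86 to -1.26) and Sesn1, a sestrin, 17 and 40 (log2 -1.29, interval -2.23 to -0.46). Wdr59, part of the GATOR2 complex, had 49 and 18 counts (log2 1.34) and the mTOR partner Mlst8 85 and 33 (log2 1.27), whose exons share 997 bases with Bricd5 on the other strand. All 6 had a mean under 10 CPM, a range in which 2-fold gaps are common in these libraries.

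In the amino acid response through ATF4, 1 of 12 genes was at least 2-fold higher and 1 lower, with a median log2 ratio of 0.17. Ppp1r15a, a phosphatase subunit that restores translation after stress, had 350 and 125 counts (16.7 and 6.18 CPM; log2 1.40, interval 1.11 to 1.71), and Phgdh, the first enzyme of serine synthesis, 16 and 39 (log2 -1.34, interval -2.30 to -0.49). The interval lay wholly above equality for 4 of the 12 and wholly below for 2, beside 32.7% and 31.1% of all genes with that mean. Atf4 itself had 1480 and 1216 counts (log2 0.20, interval 0.09 to 0.31). The genes of the 17 outside those 12, all named next, had a mean under 1 CPM. Among them, Chac1 had 3 and 28 counts (log2 -3.11, interval -5.66 to -1.61) and Atf3 0 and 15. Trib3 had 4 and 11, Asns 0 and 2, and Psat1 0 in both. Whether this response differed between the groups was not tested. Of 18 cytosolic aminoacyl-tRNA synthetases, none was at least 2-fold higher and 1 was lower, Mars with 16 and 48 counts (log2 -1.64, interval -2.58 to -0.82), and their median was -0.01.

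Among amino acid and peptide transporters of other families, 1 of 5 was at least 2-fold higher, the vesicular glutamate transporter Slc17a6 with 66 and 12 counts (log2 2.33, interval 1.48 to 3.40), and none was lower. In the 3 remaining lists no gene with a mean of at least 1 CPM was 2-fold apart. Of 6 partners and turnover factors, Bsg, a chaperone of membrane carriers, had the largest ratio (log2 0.46, interval 0.32 to 0.60), followed by Stx1a, a syntaxin (log2 -0.43, interval -0.75 to -0.10), and the median was -0.21. In the list of glutathione, cysteine and taurine, Gclc, the catalytic subunit of the first enzyme of glutathione synthesis, had 396 and 266 counts (log2 0.49, interval 0.27 to 0.72). Cth, which makes cysteine from cystathionine, had 646 and 859 (log2 -0.49, interval -0.64 to -0.34), and the median of 6 genes was -0.07. Of 3 genes of betaine and creatine synthesis and use, Ckb had a log2 ratio of -0.49 (interval -1.32 to 0.31) and Aldh7a1 0.48 (interval 0.33 to 0.63).

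In the authors' deposited table, 34 members had a p-value, which compares the reads of the 2 libraries and not the groups. The authors marked 8 of them at 0.001 as higher and 4 as lower in the slimming library, beside 19.4% and 16.5% of the 15263 genes with such a p-value. By the authors' deposited table, the marked members with the largest scaled log2 ratios in each direction were Slc6a4 (-1.51) and Slc6a21 (5.41). The value of Slc6a21 rests on its 22 counts against 0, and next on the higher side came Slc6a7 (0.97), also from the authors' deposited table.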

How the data were processed

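The authors deposited 1 table with raw read counts per gene for the slimming and the control library, named per the file headers. Blank entries were read as no count. The table also holds the authors' log2 ratios, z-score, p-values and q-values, which compare the 2 libraries. The deposited score of a gene (its z-score), made by the authors per the file headers, compares its counts and was not used here. The submitters' processing notes give mm9 as the genome build. The aligner, the counter and any strand setting were not given in the sources used here. Per the labels' protocols, cDNA was primed with an oligo(dT) stretch of 24 bases and amplified for 18 and 14 PCR cycles.

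Symbols, exon lengths (union of exons) and overlaps came from GENCODE vM21 (GRCm38), whose coordinates were not joined to the counts. Of 18017 genes with counts, 1104 had no symbol (1.66% of counts in slimming, 1.56% in control). The TMM factors of edgeR 4.0.16 (R 4.3.3) were 1.01 for slimming and 0.989 for control, and DESeq2 1.42.0 size factors served as an alternative. Intervals are exact Clopper-Pearson 95% intervals of the slimming share of a gene's counts (scipy 1.17.1). Python 3.11.15, numpy 2.4.6, pandas 2.3.3 and matplotlib 3.10.9 were used. The filter was a mean of both libraries of at least 1 CPM, with CPM from total counts. Calculations were tested on simulated data.

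Named were members with a mean of at least 10 CPM, those past the filter and 2-fold apart, those with 0 counts against 10 or more, 9 members of known roles, and up to 4 genes per other list. Others were chosen after their values were seen. Members and lists were chosen with earlier results of these data known. The values of 1 member are not reported here.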

Additional observations from a re-analysis of the deposited data

How the results depend on the processing

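Scaling by total count, DESeq2 size factors and adding 2 to each count kept the log2 ratio of each of the 22 members with a mean of at least 1 CPM inside its counting interval, and left 1 member 2-fold higher, 1 lower and a median between -0.15 and -0.12. With a mean of at least 10 CPM, 0 members were 2-fold higher, 0 lower, and the median was 0.12. With any member that had a count, 6 were higher and 11 lower, most from a few counts. Shares over all genes were not computed for that setting, in which 0 against 1 count is already past 2-fold (log2 -1.67). Requiring the whole interval beyond 2-fold left 0 and 0. Among amino acid carriers alone, 0 were lower, since Slc6a4 carries serotonin. Without members that share exon sequence, an alternative chosen after seeing the data, 0 were higher, since Slc1a1 is left out, and the median was 0.26. Leaving out opposite-strand genes, also chosen later, kept 1 and 1, with a median of -0.18. With a mean of at least 10 CPM, 5 of the 14 counts of 2-fold genes in the other lists changed. With the longest transcript as length, Slc3a2, Slc6a9, Slc43a3 and Slc7a11 kept ranks 1 to 4 per kilobase, and 10 lower-ranked members moved. No replicate could be left out, with 1 library per group. No paired analysis was possible because each group is a single pool.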

Other observations

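Slc7a6os (ENSMUSG00000033106, chromosome 8), selected by its symbol alone and no transporter, was among the better measured genes of the set. It had 985 counts (47.0 CPM) in the slimming pool and 717 (35.4 CPM) in the control pool (log2 0.38, 95% counting interval 0.24 to 0.52), while its namesake Slc7a6 had 13 and 15 counts. The other 3 genes with this suffix were blank in both libraries.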
